A study of Homo sapiens with 2 samples.

Results

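Secretory leukocyte peptidase inhibitor (SLPI), peptidase inhibitor 3 (PI3, also called elafin) and 5 relatives, WFDC1, WFDC2, WFDC3, WFDC5 and WFDC12, are small secreted proteins built around the whey acidic protein (WAP) domain, a compact fold held together by disulfide bonds. The 7 genes were chosen by gene name, with the log2 ratio of the processed signal between the arrays known from earlier results, so the values below describe them and test nothing. They are 7 of 30484 distinct names on the array and have 10 of its 41000 probes, and each of these probes was spotted once. SAS is a human tongue squamous carcinoma line, used here as the unselected parental cells. eSAS is the population obtained from it after 5 rounds in which large spheroids grown on low-adhesion plates were held back on a mesh and dispersed. The selection cannot be told apart from the time the cells had spent in spheroid medium. Total RNA of each, taken during logarithmic growth, was hybridised to 1-colour microarrays, with 1 array of SAS and 1 of eSAS. A single array a side gives no spread between cultures, so nothing was tested between the cells and the small number of arrays sets the precision. More SLPI RNA per cell cannot be told apart from more cells that express it.

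WAP proteins guard epithelial surfaces. SLPI occupies the active site of neutrophil elastase, cathepsin G, trypsin and chymotrypsin, and elafin that of neutrophil elastase and proteinase 3. Both also act against microbes and dampen NF-κB signalling, and both are made by oral, airway and skin epithelium. Most human WAP genes lie in a cluster on chromosome 20, and a few, WFDC1 among them, lie on other chromosomes.

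Across the array, 69.4% of the probe spots were well above background for SAS and 67.5% for eSAS by the criterion of the scanner software, and 0 were saturated. Signals were scaled to the 75th percentile of each array, 1242 for SAS and 1196 for eSAS. All 10 genes fixed as markers of squamous epithelium had a probe well above background on both arrays, and 1 of their 12 probes measured on both had a positive log2 ratio (eSAS over SAS). Both KRT14 probes were lower by at least 2-fold in eSAS cells, but by very different amounts. The fold was 95.4 at 1 probe, from 8749 for SAS to 88.3 for eSAS, and 2.35 at the other, from 3136 to 1286. KRT16 was 1.59-fold lower at its bright probe, with 1611 for SAS and 975 for eSAS, and at least 2.15-fold lower at a dim one, which came to -0.34 on the log2 scale with no background correction. Their summed signal was 109735 for SAS and 79741 for eSAS. Of 7 leukocyte and neutrophil markers, CD14 alone was well above background, at 215 and 233, and the defining markers PTPRC, ITGAM, MPO and ELANE were not on either array. Of 7 airway secretory markers, SCGB1A1 and MUC5B were, with a summed signal of 131 for SAS and 134 for eSAS. MUC5B was well above background at only 1 of its probes. Of 6 fibroblast markers, COL1A1 was at 15.2 on the SAS array and LUM at 29.6 on the eSAS array, each on that array alone, and the other 4 were on neither. The part of the markers that moved in the SLPI result was not tested.

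SLPI was higher in eSAS cells at both of its probes, by 2.44-fold on average. Its first probe, A_23_P91230 (chromosome 20 of hg18, 43314364 to 43314423), had a processed signal of 4862 ± 486 for SAS and 11209 ± 1121 for eSAS, where the error is that of the software for the spot. The second, A_24_P190472 (43315634 to 43315693), had 1245 ± 125 and 2980 ± 298. The eSAS signal thus lay above the SAS signal by more than these errors at both probes. After scaling, the differences were 2.39-fold and 2.49-fold, or 1.26 and 1.31 on the log2 scale.

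The SLPI probes lie 1270 bases apart in the genome and 194 rows apart on the array, and their log2 ratios differed by 0.054. Over 3891 genes with 2 probes well above background on both arrays, the median difference between the probes of a gene was 0.11. Of these genes, 16 had both probes at least 2-fold higher in eSAS cells, SLPI among them, and 19 had both at least 2-fold lower. Probes of like brightness (1000 to 10000) that were spotted 10 times differed between their spots with an SD of 0.042 in the log2 ratio (96 probes), far less than the SLPI difference. This spread is technical and leaves out the variation between cultures. None of the SLPI spots was marked by the software, their local backgrounds were 29.0 to 31.0, and the median log2 ratio of the well measured spots adjacent to them was 0.012 for the first probe and -0.17 for the second.

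**Figure D1:**
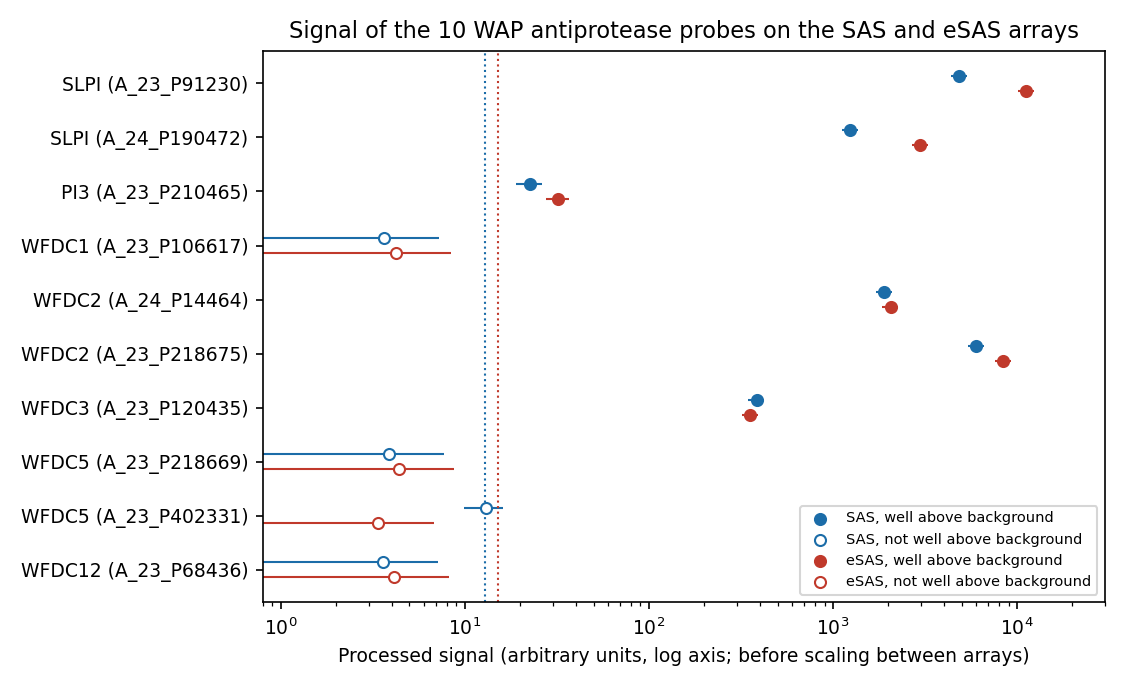
Processed signal (arbitrary units, log axis, before scaling) of each of the 10 probes on the SAS array (blue) and the eSAS array (red). Bars are the software's error of the spot and run off the axis for dim spots, open points were not well above background, and dotted lines mark the lowest probe well above background on each array, 12.8 for SAS and 15.2 for eSAS; the SLPI pairs stand furthest apart among the filled points.

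PI3, which couples a WAP domain to a tail that transglutaminases cross-link into the extracellular matrix, was close to the detection limit. Its only probe (43238059 to 43238118) had a processed signal of 22.7 ± 3.68 for SAS and 32.2 ± 4.69 for eSAS. The difference of 1.47-fold (0.56 on the log2 scale) compares with a software error of 0.31 for this ratio and with an SD of 0.18 between spots of probes with a signal of 10 to 100 (22 probes). It depended on how the background was treated. Normexp subtracts the local background, models what remains and here adds an offset of 50, above both PI3 signals. Such an offset by itself shrinks the ratios of dim spots. Fitted without spots of marked local background, normexp gave a log2 ratio of 0.032, and with median pixels 0.0036.

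WFDC2, known as HE4 and used as a serum marker of ovarian carcinoma, was well above background at both probes. Probe A_24_P14464 (43532492 to 43532551) had 1897 ± 190 for SAS and 2058 ± 206 for eSAS, a 1.13-fold difference that lay within the errors of the spots. Probe A_23_P218675 (43542083 to 43542142) had 6012 ± 601 and 8395 ± 840, or 1.45-fold. Their log2 ratios of 0.17 and 0.54 differed by 0.36, which is more than between the SLPI probes. The WFDC2 probes lie 9591 bases apart and are listed under different transcripts, whereas both SLPI probes are listed under the same one. Whether this bears on the difference was not tested. The SAS spot behind the larger value was marked non-uniform by the software. It lies in row 485, within rows 450 to 510, which hold 11.5% of the probe spots and 183 of the 194 marked ones of the SAS array. The SD of its pixels over their mean was 0.497, against 0.110 for eSAS, and its mean pixel of 5595 lay below its median of 6372. With median pixels under the same normexp setting, the log2 ratio of this probe was 0.38. With marked spots left out, the other WFDC2 probe alone remained.

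WFDC3, a member with several WAP domains whose function is little known, was nearly level. Its probe (43837468 to 43837527) had 386 ± 38.7 for SAS and 355 ± 35.7 for eSAS. The log2 ratio of -0.066 is smaller than the SD of 0.070 between spots of like brightness (52 probes).

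The other 3 genes were not well above background on either array, so no fold is given. WFDC1, also called ps20 and first described in prostate stroma, had 3.63 for SAS and 4.20 for eSAS at its probe on chromosome 16 (82918057 to 82920482). WFDC12 had 3.59 and 4.13 (43186193 to 43186252). The first WFDC5 probe had 3.85 and 4.38 (43171544 to 43171603), and the second had 13.0 and 3.39 (43172497 to 43172556). These signals say only that the transcripts were not detectable with these spots, and the WFDC1 spot lies in row 468.

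Of the 10 probes, 6 were thus well above background on both arrays and 4 on neither. The 6 are not separate genes, as SLPI and WFDC2 gave 2 each. Among the 6, the log2 ratio ran from -0.066 to 1.31 with a median of 0.55, and 5 were positive. This median lies between the values of PI3 and of the WFDC2 probe with the marked spot, and was 0.40 with no background correction, 0.37 with normexp without marked local backgrounds and 0.27 with median pixels. Over all 26841 probes well above background on both arrays the median was -0.0023, and 49.5% were positive. At least 2-fold higher in eSAS cells were 2 of the 6, both of SLPI, against 2.09% of the 28453 probes with a fold or a bound, and 0 were at least 2-fold lower, against 1.97%. A bound was used where a probe was dim on 1 array: the dim signal was replaced by the lowest signal well above background on that array, where that was higher. Of the probes measured on both arrays, 0.682% and 0.596% had a log2 ratio above those of the SLPI probes. The shares for PI3 and the larger WFDC2 value were 3.79% and 4.11%.

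**Figure D2:**
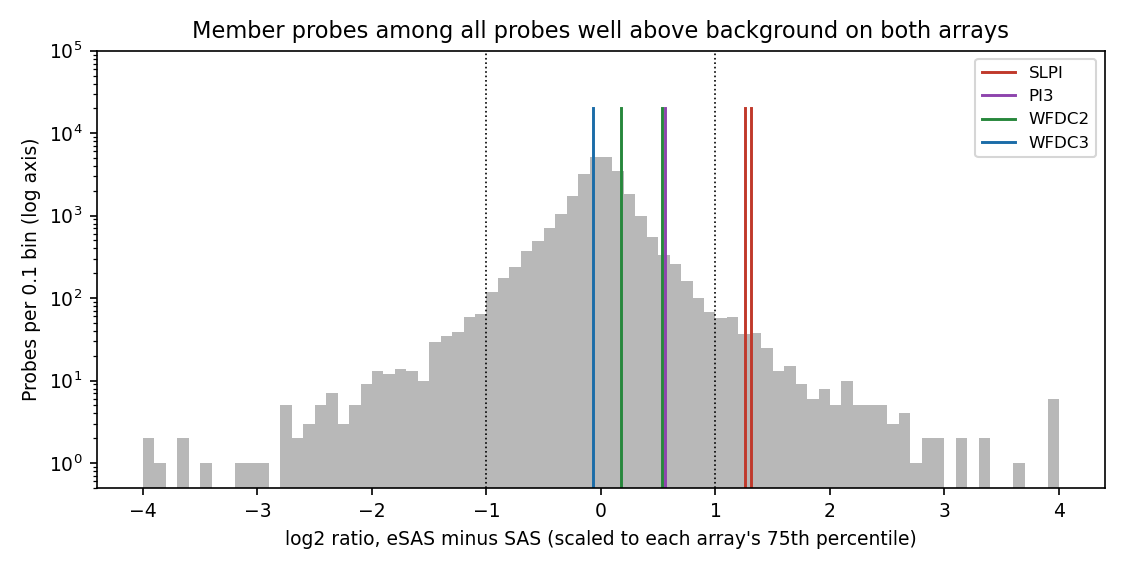
Histogram of the log2 ratio (eSAS minus SAS, scaled) over the 26841 probes well above background on both arrays, in bins of 0.1 with a log count axis; the outermost bins also hold values beyond 4. Coloured lines are the 6 member probes and dotted lines mark 2-fold; the 2 SLPI lines, at 1.26 and 1.31, are the only member lines beyond 2-fold.

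Of 13 other genes with WAP or related inhibitor domains, 11 were on the array, and of their 15 probes 2 were well above background on both. WFDC10B was level, at 274 for SAS and 266 for eSAS. ANOS1, an extracellular matrix protein with a WAP domain, had 551 and 460, a log2 ratio of -0.21. Both spots lie in rows 450 to 510. A further 4 probes were well above background on 1 array, and such probes could only differ. WFDC13 had 104 for SAS and 3.21 for eSAS, at least 6.60-fold lower in eSAS. WFDC8 had 2.60 and 47.7 at a probe that was at least 3.86-fold higher in eSAS, and 3.75 and 4.34 at its other probe. WFIKKN2 was at least 2.50-fold higher, from 5.32 to 30.9, and its other probe had 2.97 and 3.44. WFIKKN1 was at least 1.68-fold lower, from 27.5 to 15.7. The WFDC8 and WFIKKN2 probes do not repeat within the gene, whereas those of SLPI do.

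SLPI, PI3, WFDC2, WFDC3, WFDC5 and WFDC12 lie within 666 kb of chromosome 20. In this stretch with 500 kb added on each side, 52 probes of other genes had a fold or a bound. Of these, WFDC8 was at least 2-fold higher, and WFDC13, THC2684625 and CCN5 were at least 2-fold lower. The shares over all such probes of the array were 2.09% higher and 1.97% lower. CCN5, a matricellular protein, had 848 for SAS and 105 for eSAS, 7.80-fold lower, at 525 kb from the SLPI probes. The median log2 ratio of the 48 probes of other genes well above background on both arrays was -0.025, so the locus as a whole was level with the array.

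The genes around SLPI that were measured on both arrays were a little higher in eSAS cells. SEMG2, SEMG1 and RBPJL also lie there, SEMG2 closest of all, and were not well above background on either array, nor were WFDC5 and WFDC12. This stretch was picked after its values were seen. From KCNS1, 160 kb to 1 side, to SDC4, 77.5 kb to the other, 5 of 5 probes of other genes had a positive log2 ratio, from 0.31 to 0.65. KCNS1, a potassium channel subunit, went from 308 to 466. MATN4, a matrilin of the extracellular matrix, went from 239 to 323. SDC4, a cell surface proteoglycan, went from 11566 to 14006 at 1 probe and from 362 to 448 at another. BE175081, whose probe starts at the last base of the first SDC4 probe, went from 607 to 724 and had the lowest ratio, 0.31. The 5 probes thus cover fewer than 5 separate genes, with SDC4 read more than once. None of the 5 probes reached 2-fold or the ratio of SLPI. In the rest of the locus, 17 of 43 such probes were positive.

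**Figure D3:**
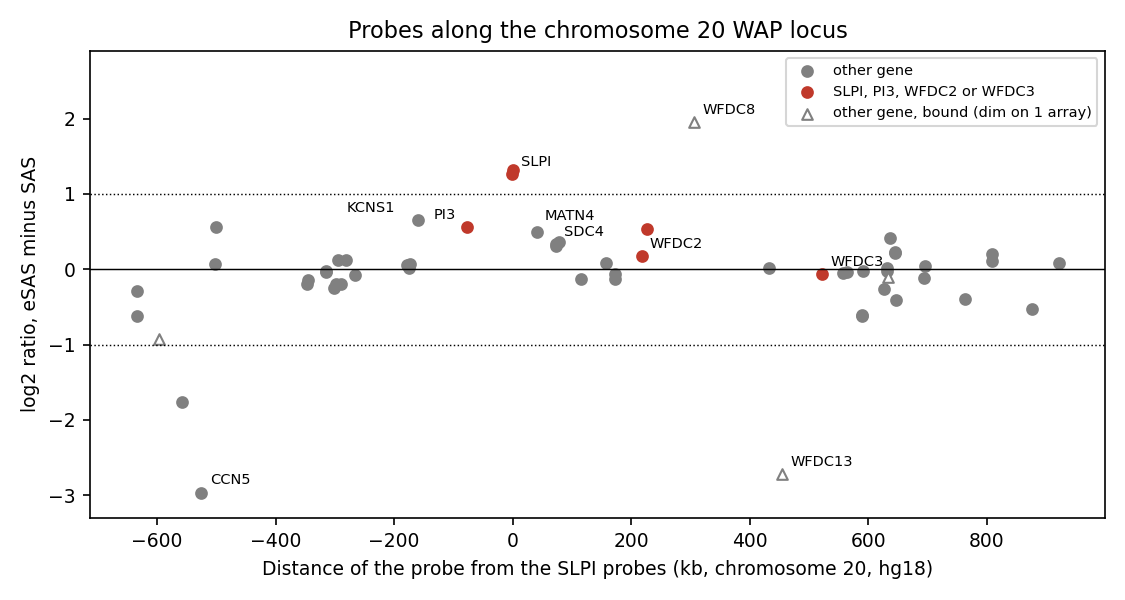
Log2 ratio (eSAS minus SAS) of each probe by its distance in kb from the SLPI probes on chromosome 20. Red points are member probes, grey points other genes and open triangles bounds, and dotted lines mark 2-fold. Only probes with a value are drawn. SLPI stands above KCNS1, PI3, MATN4 and SDC4, which lie between 0.33 and 0.65.

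The proteases listed as targets and the transglutaminases did not reach 2-fold. Of the 12 listed proteases, 11 were on the array and 5 well above background on both arrays. ELANE and CTSG, the neutrophil enzymes best known as SLPI targets, were well above background on neither. PRTN3, the proteinase 3 that elafin inhibits, was on both, with 70.7 for SAS and 63.0 for eSAS. Its log2 ratio was -0.11, and its spot lies in row 481. The log2 ratios of the 5 proteases had a median of -0.13. It was -0.25 for the 4 probes outside rows 450 to 510 and -0.089 with no background correction. The highest was that of PRSS8, 0.12, and the lowest that of MMP9, -0.39 ± 0.056 (SD, 10 spots of 1 probe). MMP9 was on the list but is a metalloprotease, whereas SLPI and elafin inhibit serine proteases. KLK5, an epithelial kallikrein, had 14009 for SAS and 10407 for eSAS. The transglutaminases, which anchor elafin, had 4 probes measured on both arrays, with a median log2 ratio of 0.53, or 0.34 with normexp without marked local backgrounds. TGM2 was at 0.49 and 0.58 by its probes, TGM1 was lowest at 0.28 and TGM4 highest at 0.73. The TGM4 value comes from a dim probe, with 32.0 on the eSAS array and less for SAS, and its other probe had 3.57 and 4.12, not well above background on either array.

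Other small inhibitors of proteases did not reach 2-fold. Of 19 such genes, 10 were measured on both arrays by 12 probes, with a median log2 ratio of -0.15. It was nearer to 0 without the subtracted background, at -0.067, and with normexp without marked local backgrounds, at -0.061. SPINT1 and SPINT2, Kunitz inhibitors of matriptase, had -0.012 and -0.027. CSTA, the cystatin of squamous epithelium, had -0.41 and -0.38, and SPINK5, an inhibitor of kallikreins, also had -0.41. TFPI, an inhibitor of tissue factor, was highest with 0.75 and 0.92. Whether SLPI differed from this list was not tested.

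Among the proteins that SLPI binds or protects, 9 probes had a fold or a bound. Of these, 1 was at least 2-fold higher, against 2.09% of such probes over the array. The median of the 8 measured on both arrays was 0.058, or 0.11 with normexp without marked local backgrounds. The higher probe was that of PLSCR4, a phospholipid scramblase, which went from 32.5 to 74.5 (2.38-fold). PLSCR1 was lowest among the probes measured on both arrays, at -0.13. GRN, whose product SLPI shields from elastase, was level at 67519 and 67619, and ANXA2 had log2 ratios of 0.052 to 0.23 at its 3 probes.

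Antimicrobial proteins that epithelia release beside SLPI were uneven. Of 8 probes with a fold or a bound, 3 were at least 2-fold higher in eSAS cells and 0 lower. Over all 28453 such probes of the array, 2.09% were higher by that much and 1.97% lower. LCN2, which withholds iron from bacteria, differed most, with 344 for SAS and 2098 for eSAS (6.33-fold). CCL20, a chemokine with antimicrobial activity, went from 58.9 to 122 (2.15-fold). The defensin DEFB103A had 2.70 for SAS and 55.0 for eSAS, at least 4.45-fold. S100A7 was lower, at 402 and 267, and S100A9 and RNASE7 were at 0.075 and 0.040 on the log2 scale. The median of the 5 probes measured on both arrays was 0.075. With normexp fitted without marked local backgrounds, in which an offset of 50 shrinks the ratios of dim spots, LCN2 kept 2.46, while CCL20, PLSCR4, DEFB103A, WFDC8 and WFIKKN2 came to 0.59, 0.48, 0.79, 0.67 and 0.45.

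**Figure D4:**
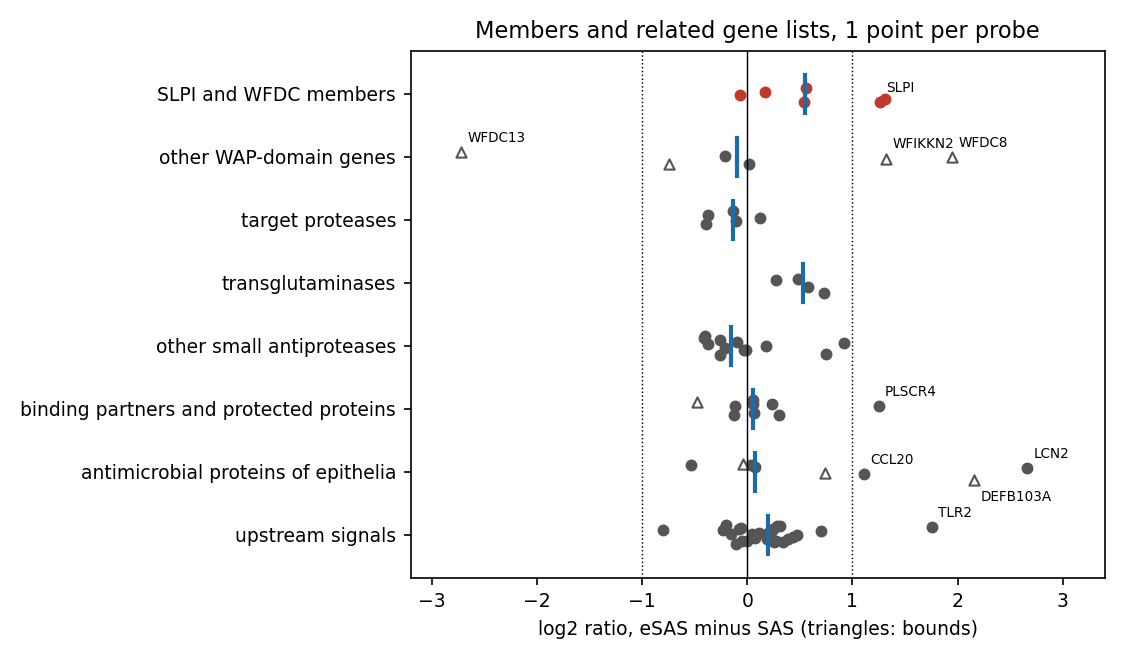
Log2 ratio (eSAS minus SAS) of each probe in the members and the 7 related lists. Each point is a probe, triangles are bounds, blue bars are medians over probes measured on both arrays and dotted lines mark 2-fold. The medians are 0.55 for the members, which were chosen with their values known, and 0.53 for the transglutaminases. With no background correction they are 0.40 and 0.43. SLPI, WFDC2 and TGM2 each count more than once, and LCN2 lies furthest right.

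The SLPI difference changed little across the ways of scaling the arrays, of which no scaling and median centring shift every probe alike. With no scaling, median centring and quantile normalization, its mean log2 ratio ran from 1.23 to 1.32. It was 1.25 with no background correction and 1.25 or 1.26 under normexp without the marked local backgrounds. With normexp fitted on all spots it was 0.81, below 2-fold, while the median of all probes moved from -0.0023 to 0.53. In that fit PI3 was at 2.75 and WFDC3 at 0.90.

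**Figure D5:**
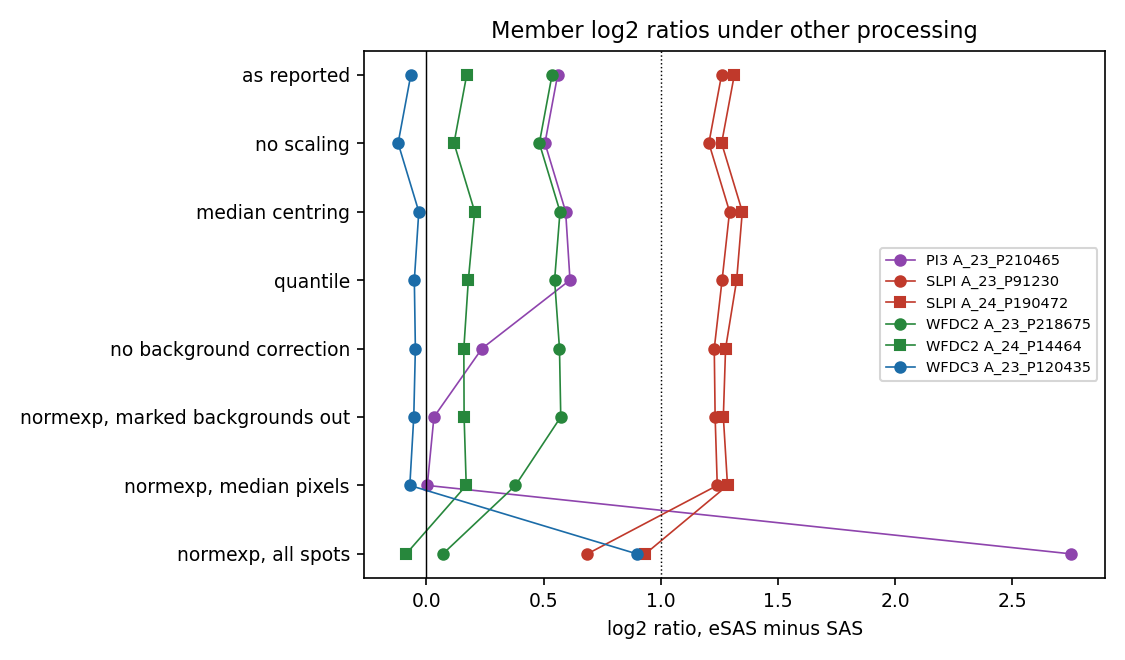
Log2 ratio (eSAS minus SAS) of the 6 member probes, joined by lines, under 8 ways of processing, from the reported setting at the top to normexp on all spots at the bottom; the dotted line marks 2-fold higher. The SLPI probes stay between 1.21 and 1.35 except in the last setting, where they fall to 0.69 and 0.93, and PI3 ranges from 0.0036 to 2.75.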

How the data were processed

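The authors deposited the output of Agilent Feature Extraction 10.7.3.1 for each array, with intensity values on a linear scale. The processed signal had its background subtracted and spatial trends removed within the array, and was not scaled between arrays. The series value table was equal to it, within a relative 1e-06, for all 90030 values. RNA input to labelling was 200 ng. The methods for the arrays refer to earlier work.

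Here each signal was divided by the 75th percentile of non-control spots on its array and log2-transformed, and spots of a probe were averaged. A probe was well above background when over 50% of its spots were. Marked spots were kept, so that every member probe has a value. Of the 10 member probes, 8 carry an accession of the RefSeq gene table (GRCh38.p14), and the WFDC2 probes were named by symbol. Probe positions are given in hg18 as the array lists them, and no annotation of that build was used here, so exons and untranslated regions are not given.

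Members and lists were chosen with earlier results of these data known. The rule named every member probe, every listed or locus gene at least 2-fold apart, the extremes of each list, and the probes ranked next to SLPI; others are named beside them for their roles and were picked after their values were seen. The counting was tested on simulated data. No dim probe was changed there and no probe was dim on 1 array alone, so the use of bounds was not tested. The number of arrays, 1 per group, limits precision. Python 3.11.15 and R 4.3.3 with limma 3.58.1 were used.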

Additional observations from a re-analysis of the deposited data

How the results depend on the processing

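The alternatives were no scaling, median centring, quantile normalization, no background correction, normexp with an offset of 50 on mean pixels with all spots or without the 26 spots of marked local background, normexp on median pixels without those spots, the series value table, no lower limit for dim probes, only probes well above background on both arrays, marked spots left out, each SLPI probe by itself and, added after the data were seen, rows 450 to 510 left out. A value counted as moved when it changed by more than 0.075, the SD of the log2 ratio between spots of 211 replicated probes. The mean SLPI log2 ratio moved in 1 of 14 settings, to 0.81 with normexp on all spots, and the count of member probes at least 2-fold higher was 1 instead of 2 there: both SLPI probes were below 2-fold and PI3 was above it. The cause was not tested. No other setting moved either, and 0 member probes were at least 2-fold lower in any. Several settings could not move the SLPI value, so the count of settings is no measure of how firm it is. The series table equals the processed signal, and the SLPI spots were bright, unmarked and outside rows 450 to 510. No scaling and median centring shift every probe alike. PI3 moved in 4 of 12 settings, all of them changes of background correction, to 0.24 with no correction. WFDC2 A_24_P14464 changed sign with normexp on all spots, to -0.087, and WFDC3 did so as well. The slide as a block and leaving out a replicate were not run, since each group has 1 array. No paired analysis was possible because each group holds a single array. Over all probes, 594 were at least 2-fold higher and 560 lower. The counts were 153 and 157 with normexp without marked local backgrounds, 155 and 135 with median pixels, 196 and 162 with no background correction, 320 and 336 with probes above background on both arrays, 725 and 885 with no lower limit, and 11335 and 184 with normexp on all spots.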

Other observations

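Genes of signalling upstream of SLPI and PI3 in epithelia were also listed, not all of them activators: NFKBIA, at -0.050, encodes an inhibitor of NF-κB. TLR2, IL6 and IL1A were higher in eSAS cells, and JUN was lower. Of 23 such genes, 20 were measured on both arrays by 26 probes, of which 18 had a positive log2 ratio, with a median of 0.20. Over all probes measured on both arrays, 49.5% were positive and the median was -0.0023. Probes are not separate genes here, as FOSL2 by itself gave several of the positive ones. Whether these genes bear on SLPI was not tested. With rows 450 to 510 left out, the median was 0.10 over 24 probes. TLR2, a receptor for bacterial lipoproteins, was the highest and the only one at least 2-fold apart. It went from 28.3 to 91.7, with a log2 ratio of 1.76 ± 0.16 (SD) over its 10 spots, all of them higher. IL6, IL1A and IL1B, inflammatory cytokines, had 0.70 ± 0.028, 0.47 ± 0.041 and 0.25 ± 0.030, each over 10 spots. NFKB1 was level at 0.043 ± 0.019, and JUN, a subunit of AP-1, was lowest at -0.80 ± 0.035. The spread over spots leaves out cultures and hybridisations. With normexp fitted without marked local backgrounds, TLR2 was at 0.75.

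With 2 arrays, the only measure of likeness between genes is the log2 ratio. Ranked from the highest among the 26841 probes measured on both arrays, the SLPI probes held places 161 and 184. The probes just above were those of MSMO1 (1.33) and BFSP1 (1.32), and those just below were of HYCC1 (1.26) and FAP (1.25).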
